A study of Homo sapiens with 10 samples.

Results

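Doxorubicin (DOX) is an anthracycline, a planar quinone drug that inserts into DNA and poisons topoisomerase II. How much of it acts in a cell depends in part on pumps that carry it out and on enzymes that reduce it. The 8 genes described here, of 32738 genes counted, were taken by name as the best known of both kinds, with earlier results of these data known. They are 5 pumps of the ATP-binding cassette (ABC) superfamily (ABCB1, ABCC1, ABCC2, ABCC3 and ABCG2) and 3 reductases (CBR1, CBR3 and NQO1). ABC pumps couple the splitting of ATP to the transport of a substrate across a membrane, and raised levels of several of them are known from drug-resistant tumour lines. The carbonyl reductases turn the ketone of the DOX side chain into an alcohol. NQO1 reduces quinones to hydroquinones and is a classic target of NRF2, the transcription factor of the antioxidant response.

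The cells were HCT-116, an established human colorectal carcinoma line, with genotype WT in the labels. Untreated cells were compared with cells that had received 200 nM DOX for 24 h and then recovered for 6 days without the drug. Each condition had 2 droplet single-cell libraries, in which each captured mRNA carries a unique molecular identifier (UMI), so that molecules are counted per gene and per cell barcode. The sources used here do not say whether the replicates came from separate cultures, so the p-values measure the spread between these libraries, which may be technical. The 6 bulk samples of the series were not analysed here.

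The untreated libraries held 317489299 and 209547139 UMIs over 4701 and 2528 barcodes, and the DOX libraries 159897846 and 170495465 UMIs over 8000 barcodes each, a number that was forced in the cell calling of the DOX libraries only. Deep barcodes, defined by at least 20000 UMIs and a share of mitochondrial (MT-) UMIs under 8%, numbered 3572 and 2137 in the untreated and 1307 and 1080 in the DOX libraries, with median depths of 72676 to 84829.5 UMIs. Cycling barcodes were the deep ones with at least 15 UMIs of MKI67 and TOP2A together. They made up 75.2% and 84.5% of the deep barcodes without DOX and 48.0% and 52.2% with it. The limit cuts a continuous range, with 435, 174, 127 and 110 deep barcodes of untreated 1, untreated 2, DOX 1 and DOX 2 at 10 to 14 UMIs and 403, 180, 101 and 72 at 15 to 19. Any pair of libraries shared 5 to 24 barcode sequences, and 0 to 2 among deep barcodes. The 3 p53 targets used as a check of treatment, CDKN1A, MDM2 and GDF15, rose with DOX in deep barcodes, by 2.99, 1.23 and 2.74 on the log2 scale. All 10 colon epithelial markers had UMIs in every library, and their sum was 3614 to 3993 CPM (UMIs as parts of all UMIs in the barcodes named, scaled to the usual common total) without DOX and 5968 to 6307 CPM with it. Of these 10, 7 reached 1 CPM in each untreated library and 8 in each DOX library. Fibroblast markers summed to 2.87 and 2.93 CPM without DOX and 4.54 and 4.74 CPM with it, with COL1A2 at 0 in every library. Leukocyte markers summed to 2.77 and 2.82 against 4.56 and 5.17 CPM, with CD2 at 0 in 3 of the 4 libraries. Endothelial markers summed to 44.2 and 46.3 against 45.9 and 53.2 CPM. All 7 of them in the counts also had UMIs in every library, with 2 or 3 at 1 CPM or more. UMIs were seen for 6 of 8 fibroblast markers in each library, and for 9 of 10 leukocyte markers, or 6 in DOX 2. In each of these 2 lists 1 marker reached 1 CPM. The nuclear-retained RNAs NEAT1, MALAT1 and KCNQ1OT1 summed to 5048 and 5309 against 9397 and 9657 CPM. Of the fibroblast, endothelial and leukocyte markers that could be tested, 1 of 3, 2 of 5 and 3 of 4 were called higher with DOX, beside 28.2% of all genes tested. Of the 9 colon epithelial markers tested, 6 were called higher and 1 lower, beside 28.2% and 26.4% of all genes. The lower one was EPCAM (log2 fold change -0.37, SE 0.10). The filter on low counts can keep a gene for its counts in the DOX libraries alone. The part of these shifts in the results was not tested.

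The members lie on 6 chromosomes. In hg19, the build of the count tables, the annotation places ABCB1 at chr7:87132333-87342639 on the minus strand, ABCC1 at chr16:16042995-16237114 (plus), ABCC2 at chr10:101542397-101612351 (plus), ABCC3 at chr17:48712138-48769614 (plus) and ABCG2 at chr4:89011302-89152780 (minus). The reductases are at chr21:37442239-37445464 (CBR1, plus), chr21:37507377-37518860 (CBR3, plus) and chr16:69740899-69760571 (NQO1, minus). ABCB1, CBR1 and NQO1 each overlap a gene of the opposite strand that the tables also count.

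The following stretches of 30 bases show some of the matches to well-known promoter motifs, in 2 members. ABCG2 and NQO1 also held matches, which are not printed. RefSeq promoter windows, 10 in all, were at hand for 5 members (ABCB1, ABCC2, ABCG2, CBR1 and NQO1). The 250 bases before each annotated start were searched on both strands for CCAAT, the NRF2 letters TGACNNNGC, the xenobiotic-response letters GCGTG and the GC box GGGCGG. Capitals mark the match, which is read on the opposite strand except in the first line. Each stretch was placed in hg19 by an exact match of its whole window.
ABCB1, chr7:87230421-87230450, minus strand: gttgaaatgtccCCAATgattcagctgatg
ABCB1, chr7:87230262-87230291, minus strand: gtggtgaggctgATTGGctgggcaggaaca
CBR1, chr21:37442153-37442182, plus strand: tgcgggttctGCAAAGTCAggctagctggc

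These letters are common. Of 35116 RefSeq windows of this length, 32.0% held CCAAT, 10.9% TGACNNNGC, 32.2% GCGTG and 42.6% GGGCGG. The NQO1 window held no TGACNNNGC, and the ABCC2 window and another window of ABCB1 none of the 4 motifs. This says only that these letters are not in the 250 bases searched.

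DOX was compared with no DOX first over all deep barcodes, which were 76.0% and 84.5% of the barcodes without DOX but 16.3% and 13.5% with it, so this compares deep barcodes and not all cells of a library. ABCC3 and CBR3 were higher and NQO1 was lower in both DOX libraries than in both untreated ones. The other pumps overlapped between the conditions as parts of all UMIs. How many of all genes separate by level in this way was not counted, so such statements, here and below, only describe the members. Counts were summed per library and tested with edgeR's quasi-likelihood test with Benjamini-Hochberg adjustment over 21563 genes. Of these genes, 54.6% were called at an adjusted p under 0.05, 28.2% higher and 26.4% lower with DOX. Of the 7 members tested, 2 rose and 2 fell, a share close to that background. The scaling matters at this size of change: TMM factors shift every log2 fold change of DOX over untreated by -0.167 against parts of all UMIs, and without them 72.2% rather than 51.6% of the calls were higher with DOX. CPM values here are parts of all UMIs, and fold changes are TMM-scaled.

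Among the pumps, ABCC3 showed the clear rise. ABCC3, also called MRP3, exports organic anions and glucuronides and sits in the basolateral membrane of epithelia. It had 27.4 and 29.7 CPM without DOX and 43.6 and 43.5 CPM with it, so the replicates lay close together and far from the other condition. The change on the log2 scale was 0.44 (SE 0.055, adjusted p = 0.00021), or 1.36-fold.

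ABCC1, also called MRP1, exports glutathione, glucuronide and sulfate conjugates, and anthracyclines together with glutathione. Its levels were 84.5 and 95.3 CPM without DOX and 88.3 and 91.4 CPM with it, DOX lying inside the untreated range. With TMM scaling it was called lower by a small margin (log2 fold change -0.17, SE 0.061, adjusted p = 0.043), while as parts of all UMIs the change was -0.0013 (adjusted p = 0.99). ABCC2 (MRP2), the apical exporter of conjugates in liver, gut and kidney, had 34.0 and 37.4 against 37.3 and 39.7 CPM and changed by -0.06 on the log2 scale (SE 0.058, adjusted p = 0.42), which was not called. Without TMM factors its value was 0.11.

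ABCB1 and ABCG2 gave few UMIs in these cells. ABCB1 encodes P-glycoprotein, which extrudes many uncharged and cationic drugs. It had 552 and 416 UMIs in all deep barcodes without DOX and 205 and 221 with it, which is 1.89 and 2.09 against 1.97 and 2.16 CPM (log2 fold change -0.11, SE 0.11, adjusted p = 0.43). ABCG2, the breast cancer resistance protein, had 1.45 and 1.62 against 1.65 and 1.41 CPM (log2 fold change -0.17, SE 0.13, adjusted p = 0.30). Neither passed the test, and the SE leaves room for changes of the size seen for ABCC1.

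The reductases moved in opposite directions. NQO1 had 309.7 and 281.5 CPM without DOX and 228.3 and 214.9 CPM with it, the highest DOX value lying below the lowest untreated one. The log2 value for NQO1 was -0.59 (SE 0.090, adjusted p = 0.00065), or 0.666-fold. CBR3, a carbonyl reductase close in sequence to CBR1, had 680 and 472 UMIs without DOX and 346 and 328 with it. These are 2.33 and 2.37 against 3.33 and 3.21 CPM, with no overlap (log2 fold change 0.31, SE 0.098, adjusted p = 0.026). The call of CBR3 was lost in 7 of 15 alternatives, among them DESeq2 (0.28, adjusted p = 0.16) and 3 of the 4 fits that leave out a library, namely those without untreated replicate 1 (0.33), untreated replicate 2 (0.26) or DOX replicate 1 (0.25). The call of ABCC1 held in 7 of 16 alternatives, was lost in 8, among them the fits without DOX replicate 1 (-0.17) or DOX replicate 2 (-0.19), and had the opposite sign in 1 (0.030, uncalled). ABCC3 and NQO1 were called in all 16 alternatives, with log2 fold changes of 0.39 to 0.72 and of -0.73 to -0.39.

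CBR1 could not be compared. It was listed with 0, 2, 1 and 3 UMIs over all barcodes of untreated 1, untreated 2, DOX 1 and DOX 2, so each library was at or under a floor of 3 counts, and the filter on low counts removed it. In the annotation CBR1 lies inside the span of SETD4, which runs on the opposite strand, and overlaps a same-strand gene that the tables do not list. Whether either keeps reads from being assigned to CBR1 was not tested, so the value says little about the amount of CBR1 mRNA.

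**Figure D1:**
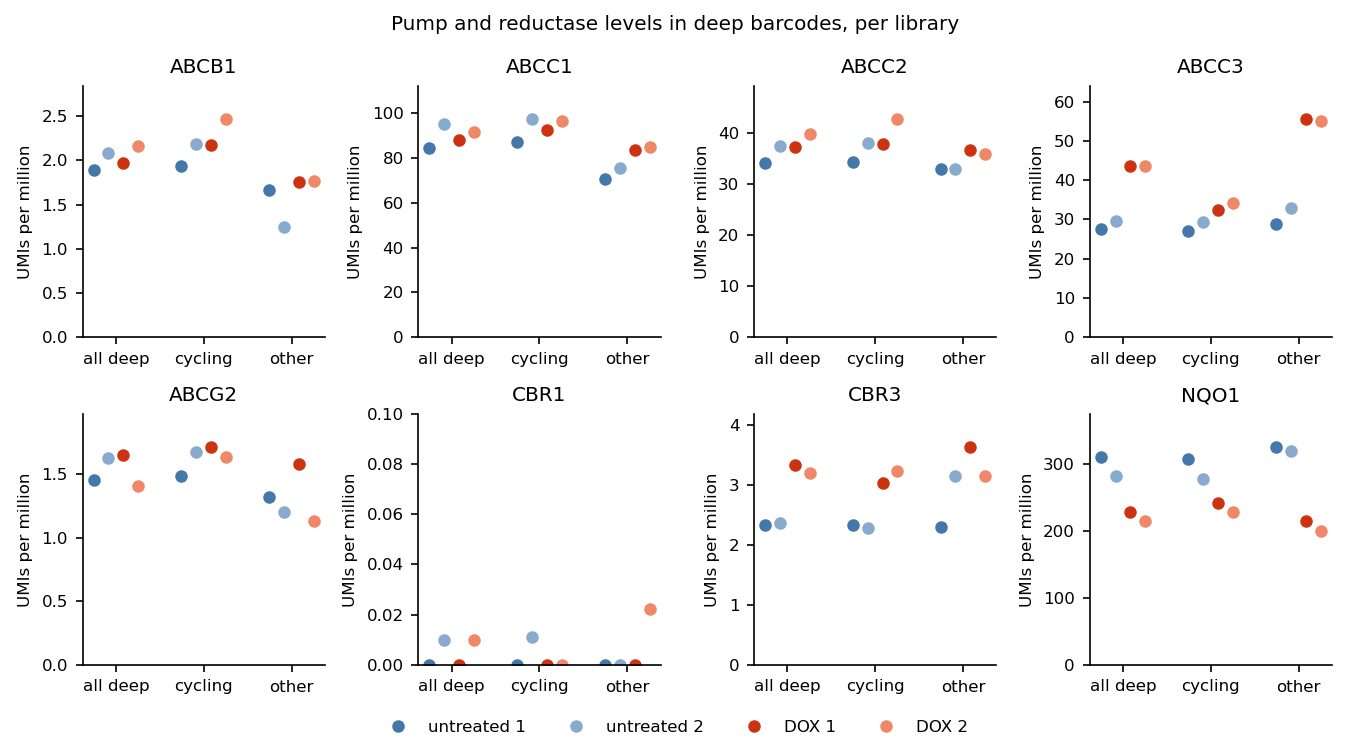
CPM as parts of all UMIs (linear axes from 0) for each member in all deep, cycling and other deep barcodes, 1 point per library. ABCC3 was 43.5 and 43.6 in the DOX libraries against 27.4 and 29.7 without DOX over all deep barcodes, while in cycling barcodes the 4 libraries lay between 27.2 and 34.3, and NQO1 was lower with DOX in all 3 classes.

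The next comparison was of cycling barcodes only, those past the MKI67 and TOP2A limit with DOX against those without it. Division itself was not measured, and CDKN1A was higher with DOX in these barcodes too, by 2.30 on the log2 scale (SE 0.12). The untreated libraries are shared with the comparison above, so the comparisons are not independent. NQO1 fell here too, CBR3 rose, and none of the 5 pumps was called. Of 20165 genes tested (MKI67 and TOP2A left out, since they chose the barcodes), 32.3% were called, 16.4% higher and 15.9% lower with DOX, and without TMM factors 71.9% rather than 50.7% of the calls were higher. Of the 7 members tested, 1 rose and 1 fell.

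In cycling barcodes NQO1 had 306.7 and 277.3 CPM without DOX and 241.8 and 227.3 CPM with it. The groups did not overlap (log2 fold change -0.41, SE 0.090, adjusted p = 0.0070), although without DOX replicate 2 the change of -0.36 was not called (adjusted p = 0.064). CBR3 had 2.34 and 2.28 against 3.04 and 3.24 CPM (log2 fold change 0.35, SE 0.12, adjusted p = 0.043). Its call was lost in 6 of 17 alternatives, among them the fits without untreated replicate 2 (0.29), DOX replicate 1 (0.37) or DOX replicate 2 (0.30).

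For ABCC3 the cycling values were 27.2 and 29.3 CPM without DOX and 32.3 and 34.3 CPM with it. The DOX libraries were again the higher ones, but the change was 0.15 (SE 0.061, adjusted p = 0.089) and not called. The call depended on the setting, since 7 of 18 alternatives did call it, at values of 0.16 (without untreated replicate 2) to 0.30. ABCC1 had 87.2 and 97.5 against 92.5 and 96.5 CPM, ABCC2 34.2 and 37.9 against 37.9 and 42.7 CPM, and both overlapped between conditions. ABCB1 had 1.94 and 2.18 against 2.18 and 2.47 CPM (log2 fold change 0.09, SE 0.13). The value of ABCG2 was -0.00049 (SE 0.14).

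**Figure D2:**
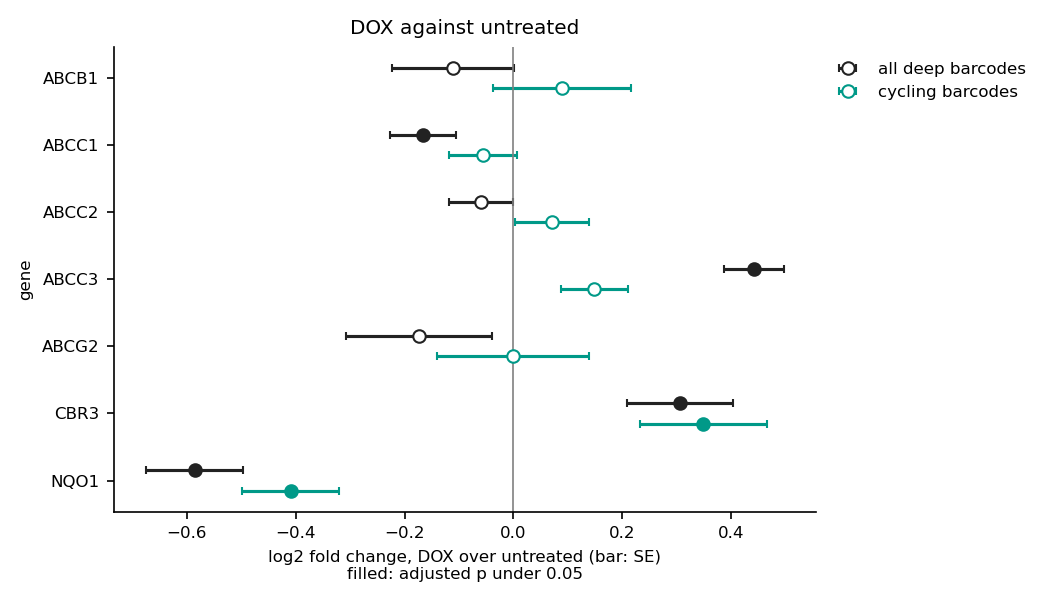
Log2 fold change of DOX over untreated for the 7 members tested, over all deep barcodes (black) and cycling barcodes (green), with bars of 1 SE and filled points for an adjusted p under 0.05. ABCC3 is at 0.44 over all deep barcodes and at 0.15 in cycling ones, NQO1 at -0.59 and -0.41, and CBR3 at 0.31 and 0.35.

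The difference between these pictures was tested directly, with the deep barcodes of each library split into cycling and other ones and the library kept as a term (8 sums, 19544 genes). Within the DOX libraries, cycling barcodes carried less ABCC3 and more ABCB1, ABCC1, ABCC2 and NQO1 than the other deep barcodes. Cycling barcodes were also the deeper ones, with medians of 81858 and 87004 UMIs against 53026 and 57339 without DOX and of 78222.5 and 90268 against 64817 and 73793 with it. Here 51.8% of the genes were called, 28.3% higher and 23.5% lower in cycling barcodes, and of the 7 members tested 4 were higher and 1 lower. Within the untreated libraries 16.1% of the genes were called, 8.37% higher and 7.71% lower, and the members split into 1 higher (ABCC1) and 2 lower (ABCC3 and NQO1). Without TMM factors 43.9% rather than 54.7% of the calls within DOX, and 79.1% rather than 52.0% within untreated, were higher in cycling barcodes.

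ABCC3 had 32.3 and 34.3 CPM in cycling and 55.6 and 55.1 CPM in other barcodes of the DOX libraries, against 27.2 and 29.3 and 28.9 and 33.0 CPM in the untreated libraries. The highest of these levels were thus those of DOX-treated barcodes with few MKI67 and TOP2A UMIs. The cycling contrast was -0.66 (SE 0.051, adjusted p = 3.6e-07) with DOX and -0.20 (SE 0.054, adjusted p = 0.024) without it, and the contrasts differed by -0.45 (SE 0.074, adjusted p = 0.00047). The contrast without DOX lost its call in 5 of 13 alternatives, among them the fit without untreated replicate 2 (-0.13).

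NQO1 went the opposite way in the 2 conditions. It had 241.8 and 227.3 CPM in cycling and 214.0 and 199.3 CPM in other barcodes with DOX, whereas without DOX it had 306.7 and 277.3 CPM in cycling and 325.7 and 318.6 CPM in other barcodes. Its contrast was 0.26 (SE 0.048, adjusted p = 0.00054) with DOX and -0.22 (SE 0.047, adjusted p = 0.0071) without it, the latter not called in 2 of 13 alternatives, the fit without untreated replicate 2 (-0.13) and a cycling limit of 5 UMIs (-0.095). The difference of the contrasts was 0.48 (SE 0.067, adjusted p = 0.00013). Over all genes, 31.8% differed in this way, 20.8% with a contrast more positive in DOX and 11.0% more negative, and of the 7 members 2 were called, 1 in each direction, a share near that background. Without TMM factors the calls turned from 65.6% to 37.6% more positive, and ABCC3 and NQO1 kept their directions in all 13 alternatives (-0.61 to -0.17 and 0.31 to 0.56), although ABCC3 was not called at a cycling limit of 5 UMIs.

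ABCC1 was higher in cycling barcodes in both conditions, by 0.24 (SE 0.040, adjusted p = 0.00027) with DOX and 0.25 (SE 0.041, adjusted p = 0.0015) without it. The levels were 92.5 and 96.5 CPM in cycling against 83.7 and 85.0 CPM in other barcodes with DOX, and 87.2 and 97.5 against 70.5 and 75.7 CPM without it. The difference of the contrasts was -0.01, with an SE of 0.058. It was called in 1 of 13 alternatives, without TMM factors (-0.17, adjusted p = 0.042), and changed sign without a call in 3. ABCC2 was higher in cycling barcodes with DOX by 0.23 (SE 0.055, adjusted p = 0.0035) and stood at 0.04 (SE 0.056) without it, a difference of 0.19 that did not pass (adjusted p = 0.088) but was called in 5 of 13 alternatives, among them the fit without DOX replicate 1 (0.29). Its call with DOX was lost in 3 of 13 alternatives, without DOX replicate 2 (0.15), without TMM factors (0.15) and in thinned barcodes (0.03). ABCB1 was higher in cycling barcodes with DOX by 0.48 (SE 0.17, adjusted p = 0.035), a call lost in 6 of 13 alternatives and of opposite sign in 1. Without DOX replicate 2 it was 0.41, and in barcodes thinned to an equal depth 0.01 (adjusted p = 0.99). CBR3 and ABCG2 were not called in either contrast.

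**Figure D3:**
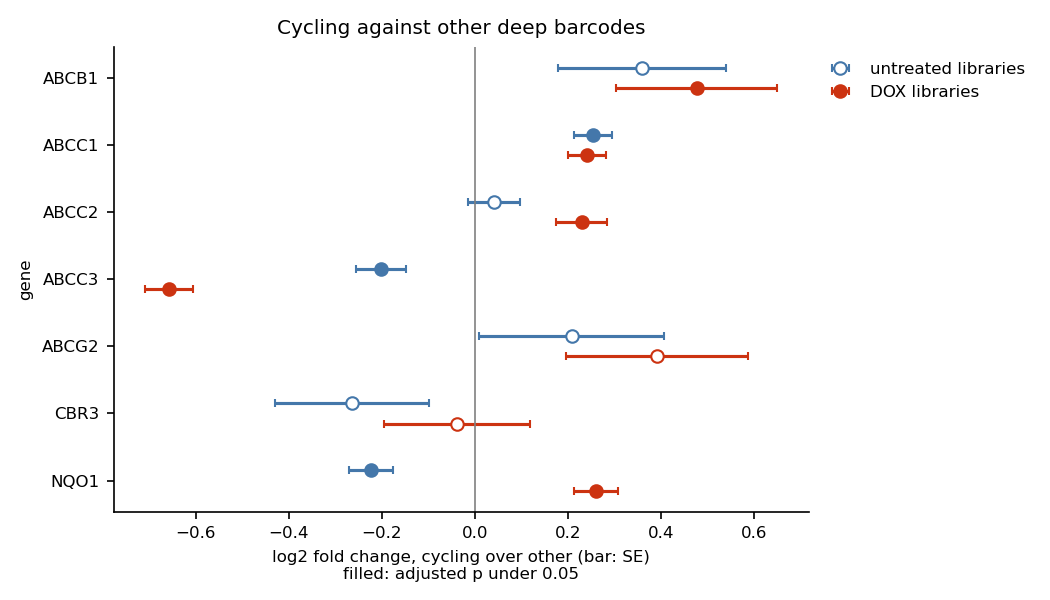
Log2 fold change of cycling over other deep barcodes within the untreated (blue) and the DOX libraries (red), with bars of 1 SE and filled points for an adjusted p under 0.05. NQO1 is at -0.22 without and 0.26 with DOX, ABCC3 at -0.20 and -0.66, and ABCC1 at 0.25 and 0.24.

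Levels were then followed over the depth of the barcodes, as a description. In the untreated libraries NQO1 did not fall from barcodes of 40000 to 80000 UMIs (310.9 and 290.0 CPM) to barcodes of 150000 or more (315.2 and 278.4 CPM) by more than the replicates differed. Its value at 20000 to 40000 UMIs was 295.1 CPM in untreated 1 and 370.8 CPM in the 37 barcodes of untreated 2. In the DOX libraries it was 275.3 and 256.7 CPM at 20000 to 40000 UMIs and 163.8 and 176.1 CPM at 150000 or more, falling at each step. ABCC3 stayed between 39.5 and 47.0 CPM in DOX 1 at every depth. In DOX 2 it was 95.4 CPM in the 63 barcodes of 20000 to 40000 UMIs and 41.3 to 45.4 CPM above.

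Barcodes left out by the limits had other levels. In barcodes with at least 20000 UMIs but a mitochondrial share of 8% or more (395 and 173 without DOX, 579 and 651 with it), ABCC3 had 48.1 and 56.3 CPM without and 101.5 and 91.2 CPM with DOX, and ABCC1 109.0 and 125.5 against 154.7 and 145.0 CPM. NQO1 remained lower with DOX there, at 263.6 and 227.8 against 200.0 and 220.6 CPM. In barcodes under 20000 UMIs the order of NQO1 and ABCC3 turned. NQO1 had 220.6 and 150.6 CPM without DOX against 306.2 and 313.6 CPM with it, whereas ABCC3 had 39.2 and 45.5 against 18.2 and 27.5 CPM and ABCC1 133.6 and 160.7 against 30.2 and 40.2 CPM, both lower with DOX. Those barcodes numbered 734 and 218 without DOX and 6114 and 6269 with it, with median depths of 7160 and 2440 against 1447 and 1238 UMIs, so they are not alike between the conditions.

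**Figure D4:**
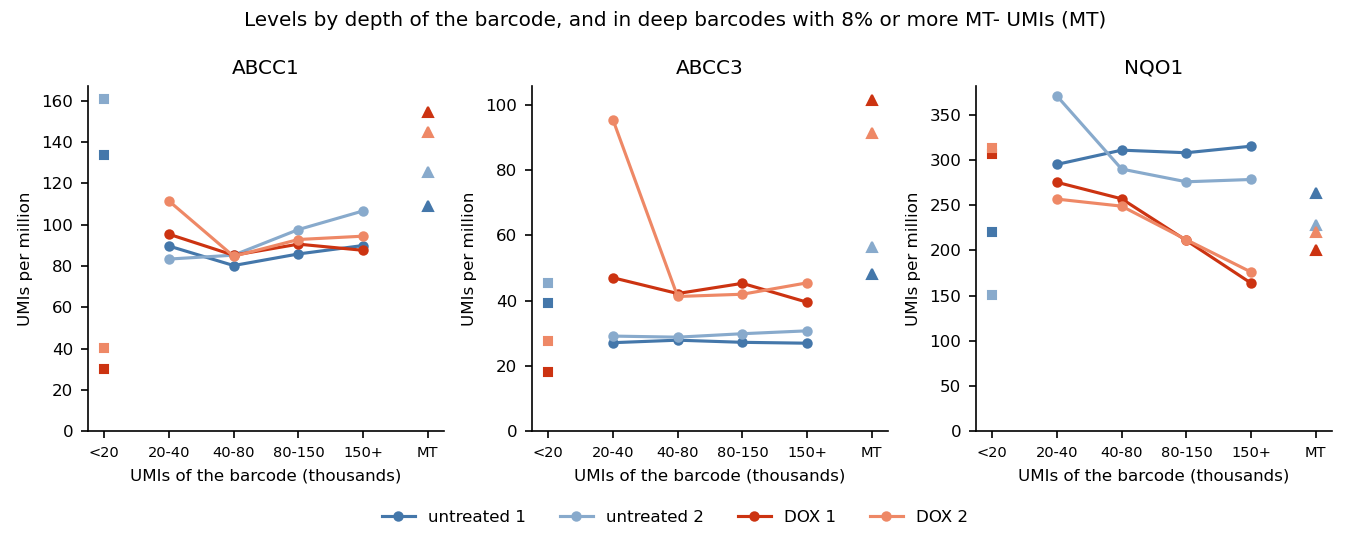
CPM of ABCC1, ABCC3 and NQO1 by depth of the barcode (circles: mitochondrial share under 8%; squares: all barcodes under 20000 UMIs; triangles: at least 20000 UMIs with a mitochondrial share of 8% or more), 1 colour per library. NQO1 falls with depth in both DOX libraries, from 275.3 and 256.7 to 163.8 and 176.1. The ABCC3 triangles of DOX 1 and DOX 2 are at 101.5 and 91.2. In DOX 1 this is the highest value, while in DOX 2 the 63 barcodes of 20000 to 40000 UMIs are higher, at 95.4.

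To compare single barcodes, each deep barcode was thinned to 20000 UMIs. NQO1 then had at least 1 UMI in 98.5% of the barcodes of untreated 1 (exact 95% binomial interval 98.1% to 98.9%) and in 98.5% of untreated 2 (97.9% to 99.0%). In the DOX libraries the shares were 94.0% (92.6% to 95.3%) and 93.9% (92.3% to 95.2%). Both DOX values lay below both untreated ones, and the share was lowest in the other DOX barcodes, 91.3% in each library, against 97.0% and 96.3% in cycling DOX barcodes. ABCC1 was seen in 76.8% and 79.2% against 71.3% and 72.7%, and ABCC3 in 37.5% (35.9% to 39.1%) and 40.8% (38.7% to 42.9%) against 43.9% (41.2% to 46.7%) and 42.3% (39.3% to 45.3%). ABCB1 was seen in 3.21% to 4.03% and ABCG2 in 2.67% to 3.43% of the barcodes of a library. The intervals cover counting error only. No other cell type was present here in which free RNA could be measured, so the background in these shares is unknown. The spread between barcodes, given by the Fano factor (variance over mean), was larger with DOX for all 4 members with a mean of at least 0.5 UMIs, for instance 1.45 and 1.46 against 2.26 and 2.40 for ABCC3. This was the rule among genes, since 92.6% of 5692 genes had both DOX libraries above both untreated ones, and 61.4% of 5821 genes within cycling barcodes.

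Pairs of members were weakly correlated between deep barcodes of 1 library. The largest correlations of thinned UMIs were those of ABCC1 with ABCC3 (0.213 and 0.231 with DOX, 0.066 and 0.083 without it) and of ABCC1 with ABCC2 (0.187 and 0.191 against 0.050 and 0.057), over 1080 to 3572 barcodes per library that share depth and library. Between ABCC1 and NQO1 the values were -0.109 and -0.090 with DOX and -0.111 and -0.102 without it. Values of this size in sparse counts are given as a description.

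The genes whose levels followed a member most closely over the 8 sums of library and state were searched among 6941 genes with a mean of at least 20 CPM, by Pearson's r of log2(CPM + 1). For ABCC3 they were RHOC (0.994), ATOX1 (0.993) and AGPAT4 (0.992). For NQO1 they were TRMT112 (0.995), NHP2L1 (0.994) and ATIC (0.993). ABCC1 was followed by FTO (0.995), CENPB (0.991) and ARID1B (0.990), and ABCC2 by R3HCC1L (0.992), RP11-1407O15.2 (0.970) and MET (0.966). The 8 sums share libraries in pairs, so these r values only describe the likeness.

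Other genes of the same pathways were read from lists over the deep barcodes. The lists were chosen with earlier results of these data known, so their counts are a description. NQO1 was not alone among the NRF2 targets: of 21 tested, 14 fell with DOX and none rose, beside 26.4% lower and 28.2% higher among all genes. The median change of the 21 was -0.29 on the log2 scale, beside 0.04 for all genes tested. GCLM, the modifier subunit of the enzyme that starts glutathione synthesis, had 97.2 and 95.4 CPM without DOX and 54.0 and 53.9 CPM with it, and fell by 1.01 (SE 0.065). PIR fell by 0.74 (SE 0.058). HMOX1, heme oxygenase, stood at 0.03 (SE 0.084) and was not called, nor was SLC7A11, the cystine importer, at -0.04. The count depends on the scaling, with 8 of 21 lower and 1 higher as parts of all UMIs, and 10 lower without DOX replicate 2. In cycling barcodes 11 of 21 fell and none rose, GCLM by 0.80. Without TMM factors 8 fell there, and 7 without DOX replicate 1 or DOX replicate 2.

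Of the 4 NRF2 regulators 2 fell and none rose, beside 26.4% lower and 28.2% higher among all genes, so 4 genes show little about the group. KEAP1, the adaptor that marks NRF2 for degradation, fell by 0.70 (SE 0.066), from 63.3 and 61.2 to 43.1 and 43.2 CPM, and MAFG, a partner of NRF2 on DNA, by 0.38 (SE 0.067). The message of NRF2 itself, NFE2L2, had 146.5 and 168.3 CPM without and 153.1 and 159.4 CPM with DOX and was not called (-0.18, adjusted p = 0.051).

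Among 15 other carbonyl and aldo-keto reductases tested, 2 rose and 5 fell (5 and 1 without TMM factors, 4 and 3 without DOX replicate 1), which is not above the 54.6% called among all genes. DHRS2 rose by 0.97 (SE 0.15), from 7.48 and 5.32 to 13.96 and 14.53 CPM, and its cycling contrast within DOX was 2.20 (SE 0.23). AKR1C3 rose by 1.14 (SE 0.21) at a level of at most 1.07 CPM. It is nearly identical to other AKR1C genes, so its count is uncertain. DCXR fell by 0.41 (SE 0.079).

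Of 9 other flavin and quinone reductases 4 rose and 3 fell (4 and 2 without TMM factors). The smallest adjusted p values were those of TP53I3, a quinone reductase-like p53 target, which rose by 1.97 (SE 0.10) from 7.36 and 6.63 to 33.1 and 28.6 CPM, of FDXR, ferredoxin reductase and also a p53 target, which rose by 0.65 (SE 0.070), and of POR. POR, the cytochrome P450 reductase that can reduce anthracyclines by a single electron, fell by 0.44 (SE 0.055), from 51.3 and 55.8 to 43.7 and 44.6 CPM. All 10 p53 targets of the list, TP53I3 and FDXR among them, rose.

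Of 38 other ABC genes tested, 21 rose and 9 fell with DOX (24 and 6 without TMM factors), beside 28.2% higher and 26.4% lower among all genes. Their median was 0.46 beside 0.04. The low-count filter can keep a gene for its counts in the DOX libraries alone, so genes near silent without DOX can enter only as rises. How many of the 21 did so was not counted, and SEs among them reached 0.69. A fit without 1 library called 13 to 16 higher and 7 to 10 lower, with the fewest rises without untreated replicate 1 or untreated replicate 2. ABCA4, a retinoid transporter of photoreceptors, rose by 3.75 (SE 0.21), ABCA12, a lipid transporter of the skin, by 2.44 (SE 0.14) and ABCA1, the cholesterol exporter, by 2.65 (SE 0.19). In cycling barcodes 11 of 31 rose and 7 fell, beside 16.4% and 15.9% of all genes. Of the 3 further genes of DOX uptake and export tested, MVP, the major vault protein, rose by 0.81 (SE 0.081), from 18.0 and 18.0 to 38.0 and 32.9 CPM, and the other 2 were not called.

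**Figure D5:**
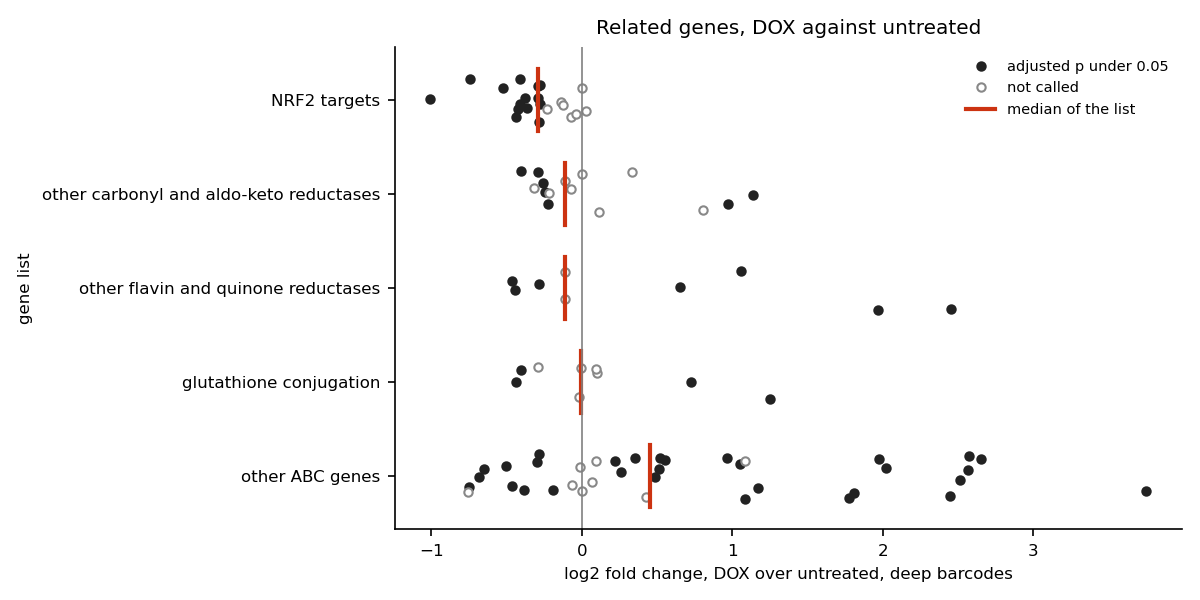
Log2 fold change of DOX over untreated in deep barcodes for each tested gene of 5 lists (filled: adjusted p under 0.05, red line: median of the list, vertical scatter without meaning). The NRF2 targets have 14 filled points below 0 and none above, and the other ABC genes 21 above and 9 below.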

How the data were processed

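The deposited values are UMI counts per gene and barcode, which the authors made with Cell Ranger (7.2.0 in the paper's methods; 7.0.0, with CASAVA 1.8.2, SAMtools 1.2 and bedtools 2.25, in the submitters' notes) on hg19, without normalization. The cell calling was forced to 8000 barcodes in the DOX libraries. Here no background RNA was removed and no doublet caller was run; the study's upper limits on genes and UMIs were an alternative. Members and gene lists were chosen with earlier results of these data known. Counts were summed per library over deep barcodes and over their cycling and other barcodes, and tested with edgeR 4.0.16 (TMM, filterByExpr, quasi-likelihood F test, Benjamini-Hochberg adjustment over all genes tested, threshold 0.05). The SE is the fold change over the root of F. An exact permutation test of 2 against 2 libraries cannot go below p = 0.33, so none is given. DESeq2 1.42.0, other filters, limits and scalings, and each library left out were the alternatives. Thinning drew UMIs without replacement. Conditions were tested over libraries, never over barcodes. Positions come from GENCODE v44 lifted to hg19 and promoter windows from RefSeq on GRCh38.p14. Shares of barcodes in 1 library carry exact binomial intervals, for counting error only. Named genes were the members, up to 3 called genes per list with the smallest adjusted p in deep barcodes, and 3 p53 targets. HMOX1, SLC7A11, NFE2L2 and EPCAM, which fall outside that rule, were named after their values were seen. One gene that the rule names and some promoter stretches are not reported here. The pipeline was tested on 5 draws of simulated data. Of genes changed 1.5-fold, 55.2% to 67.2% were recovered for DOX over deep barcodes (21563 genes), 56.7% to 76.1% over cycling barcodes (20165 genes) and 44.8% to 61.2% for the difference of contrasts (19544 genes). Unchanged genes made up 6.92% to 15.4%, 3.75% to 10.4% and 6.08% to 13.2% of the calls, and 4.29% to 10.6% within DOX and 4.05% to 10.7% within untreated. The highest share was above the 5% aimed at in each comparison. Only a small part of the genes was changed in these draws, while 54.6% were called over deep barcodes in the data. The rates therefore need not hold for the reported calls. Versions of the remaining software were R 4.3.3, Python 3.11.15, numpy 2.4.6, pandas 2.3.3, scipy 1.17.1 and matplotlib 3.10.9.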

Additional observations from a re-analysis of the deposited data

Results flagged for a closer look

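For 2 of the 7 members tested, the contrast of cycling against other deep barcodes differed between the conditions, by edgeR's interaction term. Of all 19544 genes tested, 31.8% were called in this way, so the share of members is near that background. For ABCC3 the difference of DOX minus untreated was -0.45 on the log2 scale, and for NQO1 it was 0.48.

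Among barcodes that the limits leave out, ABCC1, ABCC3 and NQO1 were each higher in both DOX libraries than in both untreated ones in 1 class. With a mitochondrial share of 8% or more, the mean CPM of DOX was 1.28 times the untreated mean for ABCC1 and 1.85 times for ABCC3. In barcodes under 20000 UMIs it was 1.67 times for NQO1, against 0.750 times in deep barcodes. CBR3 was also higher with DOX under 20000 UMIs, but on as few as 2 UMIs in a library, and CBR1 had too few UMIs for a ratio. The directions were not the same in both classes: under 20000 UMIs the ratio was 0.239 for ABCC1 and 0.539 for ABCC3, and with the higher mitochondrial share it was 0.856 for NQO1. These ratios were not tested.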

How the results depend on the processing

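Counts of genes called moved by more than 1.5 times under these settings. Requiring 10 CPM in 2 libraries, which tests fewer genes, gave 5732 calls for DOX over deep barcodes (11772 as reported) and 3745 over cycling barcodes (6510 as reported). Thinned barcodes, which hold fewer UMIs, gave 4271 calls for DOX over cycling barcodes, and for the cycling contrasts, where this setting was chosen after seeing the data, 6632 within DOX (10116 as reported), 1977 within untreated (3142 as reported) and 4071 for their difference (6215 as reported). DESeq2 gave 2090 within untreated and 3976 for the difference. A cycling limit of 5 UMIs gave 5310 and 1791, and the call of ABCC3 for the difference was lost there (-0.17, adjusted p = 0.59). The cause was not tested. Leaving out 1 library at a time gave 4288 to 7402 calls for cycling barcodes, the fewest without DOX replicate 2, and 519 to 4076 within untreated, the fewest without untreated replicate 2. A library left alone in its condition was assumed to vary like the others.

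Of 505 values of single members under the alternatives, 407 kept direction and call, 41 lost and 13 gained a call, and 42 that were never called changed sign, with values from -0.64 to 0.20 there. A called value changed sign in 2, ABCC1 for DOX over deep barcodes with 10 CPM required (0.030) and ABCB1 for cycling within DOX at a mitochondrial limit of 20% (-0.028), a limit added after seeing the data. The deviations of same-numbered libraries from their group means correlated by 0.0066 over genes, which gave no sign of pairing by replicate number. This is 1 correlation from 2 libraries per condition, so it cannot settle whether the numbers pair the libraries. A replicate block moved the calls to 12311 over deep and 7352 over cycling barcodes. With 2 libraries per condition the spread is poorly known, and at 1 to 3 CPM (ABCB1, ABCG2 and CBR3) counting error adds to it.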

Other observations

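Over deep barcodes 28.2% of all genes tested were called higher and 26.4% lower with DOX, and the calls of the lists named here stand beside that share. In cycling barcodes the shares were 16.4% and 15.9%. There 1 of 9 genes of glutathione conjugation rose and 0 fell. Of 7 genes of the AHR pathway 1 rose and 1 fell, and 0 of 10 factors known to act on pump genes were called. The values that follow are over deep barcodes. Of 9 genes of glutathione conjugation tested, 2 rose and 2 fell with DOX (4 and 2 without TMM factors). MGST2 rose by 0.73 on the log2 scale (SE 0.090), while GSTO1 fell by 0.44 (SE 0.089) and MGST1 by 0.40 (SE 0.083). Of 7 genes of the AHR pathway 1 rose and 2 fell (3 and 1 without TMM factors, 2 and 1 without DOX replicate 1): AHR, the ligand-bound receptor, rose by 0.40 (SE 0.057), and AHRR, its repressor, fell by 0.41 (SE 0.070), as did its partner ARNT, by 0.19 (SE 0.061). Of 10 factors known to act on pump genes, FOXO3 rose by 0.19 (SE 0.060) and YBX1 fell by 0.37 (SE 0.089). Without untreated replicate 1 those 10 split into 1 higher and 5 lower, without DOX replicate 2 none was called, and without TMM factors 3 rose and 1 fell.

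Over deep barcodes, of 7 neighbours of ABCB1 on its chromosome 1 rose and 5 fell. DBF4 fell by 0.80 (SE 0.061), SLC25A40 by 0.42 (SE 0.062) and ADAM22 by 0.39 (SE 0.061). In cycling barcodes 1 of these 7 rose and 2 fell, DBF4 by 0.27 (SE 0.062), while SLC25A40 and ADAM22 were not called. The cycling contrast of DBF4 within DOX was 1.61 (SE 0.044). Over deep barcodes 2 of 7 neighbours of CBR1 and CBR3 rose and 2 fell. CHAF1B, a chromatin assembly subunit, fell by 0.82 (SE 0.065), while RUNX1 rose by 0.32 (SE 0.081) and DOPEY2 by 0.31 (SE 0.058). In cycling barcodes 1 of these 7 rose, DOPEY2 by 0.35 (SE 0.066), and 1 fell, CHAF1B by 0.35 (SE 0.063). The cycling contrast of CHAF1B within DOX was 1.11 (SE 0.057).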
